A study of Mus musculus with 32 samples.

Results

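Adipoq, Lepr, Lpl and Pparg, 4 of the 41388 genes in the count tables, were followed as markers of the adiponectin lineage of bone marrow. They were taken as a named list, matched to the tables by Ensembl identifier, without a cutoff on a measured value. Earlier results of these data were known when the list was chosen, so the choice is not independent of them. Gene expression was measured by RNA sequencing of whole femur marrow in 32 libraries, 1 from each mouse, in 8 groups of 4. All mice were C57BL/6, 2 months old, and carried a floxed, inducible diphtheria toxin receptor (DTR) allele. DTRADQ mice (genotype DTR flox, ADQ Cre+) also carried a Cre recombinase driven by adiponectin, and the controls (Con; DTR flox, No Cre) were their Cre-negative littermates. Mice of each genotype received no diphtheria toxin (DT), or 100 ng of DT per mouse by intraperitoneal injection daily for 1, 2 or 3 days, so the treated controls received DT as well. The receptor is expected only where the adiponectin promoter has been active, and whole marrow also holds blood, vascular and other cells that this promoter does not mark.

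Adiponectin is a hormone that fat cells secrete, and in marrow its gene is active in fat cells and in the stromal cells of the same lineage, many of which also carry the leptin receptor. Those stromal cells supply factors such as CXCL12 and stem cell factor to blood-forming cells. Lipoprotein lipase cuts triglyceride carried in blood into fatty acids and is made by muscle and macrophages as well as by fat cells. PPARG is the nuclear receptor that drives fat cell formation, and it is also active in macrophages and osteoclasts. The comparison therefore sets 2 genes that mark the lineage, Adipoq and Lepr, beside 2 genes that other marrow cells also express.

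In GRCm38 all 4 genes lie on the plus strand. Adipoq (ENSMUSG00000022878) lies at chr16:23146536-23158028 with 1381 bases of exon, Lepr (ENSMUSG00000057722) at chr4:101717404-101815352 with 7049, Lpl (ENSMUSG00000015568) at chr8:68880491-68907448 with 6810, and Pparg (ENSMUSG00000000440) at chr6:115361221-115490401 with 1984. The number of other genes in the tables that overlap them was 0. Counts were made per gene, so the short and long forms of the leptin receptor, and the 2 forms of Pparg that start far apart, were not separated. RefSeq promoter windows were at hand for 3 of the 4 members (GRCm38.p6), and Lpl is named only. The windows of 250 bases before the start are shown as a description, and their part in the changes after DT was not tested. The Pparg window is that of its internal start, the first exon of the fat cell form. Capitals mark CCAAT, the letters of the CCAAT box, and TTGCNNAA, a C/EBP-type pattern in which N is any base. Both were searched on both strands, so ATTGG is the box read from the other strand. The 2 patterns do not overlap here.
Adipoq, chr16:23146286-23146535, plus strand: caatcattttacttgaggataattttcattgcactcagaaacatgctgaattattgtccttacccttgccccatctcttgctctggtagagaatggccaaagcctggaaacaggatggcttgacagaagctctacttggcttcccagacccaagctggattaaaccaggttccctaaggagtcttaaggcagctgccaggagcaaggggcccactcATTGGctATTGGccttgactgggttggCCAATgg
Lepr, chr4:101717157-101717406, plus strand: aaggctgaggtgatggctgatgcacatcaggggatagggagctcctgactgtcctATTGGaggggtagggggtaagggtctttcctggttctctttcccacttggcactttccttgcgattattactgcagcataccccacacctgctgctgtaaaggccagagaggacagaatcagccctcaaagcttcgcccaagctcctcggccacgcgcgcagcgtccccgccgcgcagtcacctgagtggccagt
Pparg internal start, chr6:115421816-115422065, plus strand: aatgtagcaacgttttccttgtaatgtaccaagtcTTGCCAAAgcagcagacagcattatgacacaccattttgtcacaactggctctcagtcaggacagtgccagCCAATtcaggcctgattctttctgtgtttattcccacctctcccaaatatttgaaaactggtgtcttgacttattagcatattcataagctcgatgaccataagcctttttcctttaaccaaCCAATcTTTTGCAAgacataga

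The Adipoq window held 3 CCAAT matches, whose first bases lay 34, 27 and 7 bases before the start, and no TTGCNNAA. The Lepr window held 1 CCAAT match, 195 bases before the start. The internal Pparg window held CCAAT matches at 144 and 22 bases and TTGCNNAA matches at 215 and 16 bases before the start. Among 32851 mouse windows of the same length, 33.8% held a CCAAT match and 2.79% held 3 or more, while 9.56% held a TTGCNNAA match and 0.572% held 2 or more. The Adipoq window had a GC content of 48.8% and 0 CpG, that of Lepr 58.4% and 10 CpG, and the internal Pparg window 40.8% and 2 CpG, beside medians of 52.4% and 6 over all windows. AGGTCA, the letters of a nuclear receptor half-site, was found in none of these 3 windows and in 14.02% of all windows. The RefSeq table also held windows not printed here, 1 for a second Lepr start and 2 for the upstream Pparg starts. The second Lepr window held 0 matches to CCAAT, TTGCNNAA or AGGTCA, so the CCAAT match belongs to 1 of the 2 Lepr starts. Of the upstream Pparg windows, the first held AGGTCA at 28 bases before its start, and the second held AGGTCA at 9 and CCAAT at 83 bases. These matches describe letters only and bear on no factor's binding.

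Totals lay between 8.97 and 22.93 M counts per library (median 14.2 M). The control libraries 3 and 4 without DT were the shallowest, at 9.49 and 8.97 M, and their 10 most abundant genes took 37.4% and 50.7% of counts, beside 19.4% to 30.9% in the other libraries. Differences of members that use the controls without DT are given with and without these libraries. The lane label reads 8 for the 8 libraries of day 3 and all lanes for the other 24, so day and lane cannot be told apart when day 3 is set against other days, while genotypes of 1 day share their label. Of the genes of marrow blood cells looked at, 10 of 10 had reads in every group, a bar too low to establish the tissue. All 4 members passed the filter on low counts, as 4 of 14527 genes. Levels are given as CPM, read counts relative to the library total after TMM scaling, and each test of a member is edgeR's quasi-likelihood test with Benjamini-Hochberg adjustment over those 14527 genes and a threshold of 0.05.

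Adipoq, the transcript of adiponectin itself, was nearly lost from DTRADQ marrow after 1 day of DT and stayed low. In controls of day 1 the libraries stood at 36.2, 37.4, 66.3 and 45.1 CPM, and in DTRADQ at 0.882, 0.292, 0.381 and 1.07 CPM. At day 2 the control values were 55.4, 55.0, 58.2 and 58.5 CPM and the DTRADQ values 0.389, 0.612, 0.221 and 0.979 CPM. At day 3 they were 37.7, 36.4, 32.1 and 54.3 CPM against 0.600, 0.332, 0.264 and 0.391 CPM. The genotypes did not overlap on any day of DT, and the DTRADQ means were 1.42%, 0.969% and 0.989% of the control means of days 1, 2 and 3. The log2 changes were −6.17 (SE 0.37, adjusted p = 1.7e-13), −6.74 (SE 0.38, adjusted p = 3.7e-14) and −6.61 (SE 0.38, adjusted p = 2.3e-14) by edgeR. The DTRADQ values rested on 3 to 12 reads per library, so their order among days is not resolved at this depth. In RNA from whole marrow, fewer cells of a type and less RNA per cell cannot be told apart.

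Lepr, the receptor for leptin on stromal cells, fell on the same days and kept a larger share of its control level. The day 1 values were 28.7, 36.3, 40.9 and 47.4 CPM in controls and 3.23, 2.12, 4.19 and 0.970 CPM in DTRADQ. At day 2 controls held 43.1, 29.9, 39.4 and 34.5 CPM and DTRADQ 2.10, 1.66, 3.38 and 2.45 CPM. At day 3 the values were 34.0, 36.6, 33.7 and 44.6 CPM against 2.94, 2.05, 2.64 and 1.86 CPM. Every DTRADQ library with DT lay below every control library, at 6.86%, 6.54% and 6.38% of the control mean in turn. The log2 changes were −3.84 (SE 0.25, adjusted p = 1.8e-12), −3.92 (SE 0.26, adjusted p = 1.6e-12) and −3.97 (SE 0.25, adjusted p = 3.4e-13) by edgeR.

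**Figure D1:**
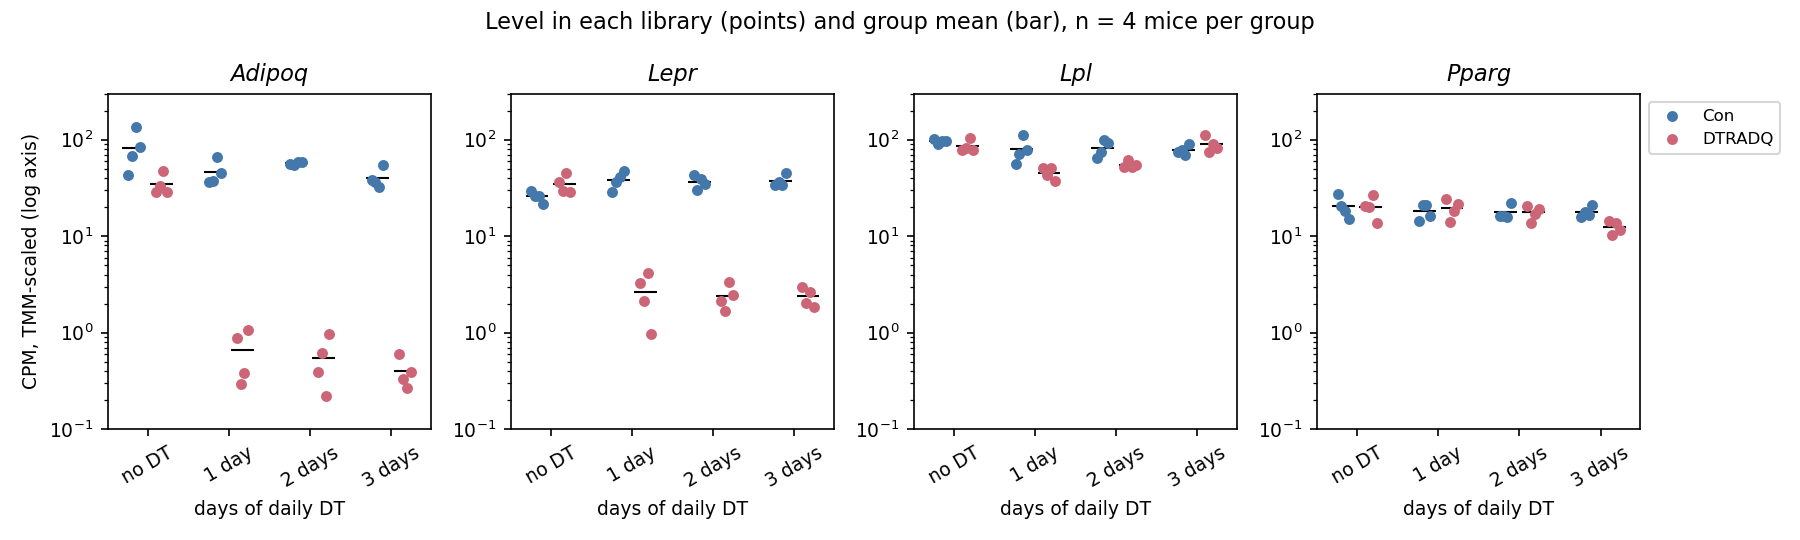
Level of Adipoq, Lepr, Lpl and Pparg in each of 32 libraries (points, CPM scaled by TMM, log axis) by days of DT, with the mean of 4 mice per group as a bar; Con in blue and DTRADQ in red. After DT, Adipoq in DTRADQ lies between 0.221 and 1.07 CPM and Lepr between 0.970 and 4.19 CPM, below all controls, while no library is below 36.9 CPM in Lpl or 10.4 CPM in Pparg.

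Lpl, which encodes lipoprotein lipase, was lower in DTRADQ at days 1 and 2 by a much smaller amount and was not lower at day 3. Day 1 libraries held 56.0, 71.1, 112 and 78.6 CPM in controls and 50.4, 42.8, 50.5 and 36.9 CPM in DTRADQ. Day 2 libraries held 64.4, 74.1, 98.7 and 92.9 CPM in controls and 51.6, 60.7, 52.4 and 54.0 CPM in DTRADQ. At day 3 the values were 74.0, 78.8, 68.5 and 89.3 CPM in controls and 112, 73.9, 90.3 and 82.6 CPM in DTRADQ. The genotypes did not overlap at days 1 and 2 and overlapped at day 3, and the DTRADQ means were 56.9%, 66.3% and 116% of the control means. By edgeR the log2 changes were −0.81 at day 1 (SE 0.17, adjusted p = 0.0025), −0.59 at day 2 (SE 0.17, adjusted p = 0.024) and 0.21 at day 3 (SE 0.17, adjusted p = 0.389, 95% interval −0.13 to 0.55). The day 2 call was lost without DTRADQ replicate 1 (adjusted p = 0.0564 by edgeR), 3 (0.0825) or 4 (0.0571), or without control replicate 3 (0.110) or 4 (0.0888).

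Pparg, the fat cell nuclear receptor, did not pass the test in any comparison of genotypes. Controls held 14.3, 21.1, 21.1 and 15.97 CPM at day 1 and DTRADQ 23.96, 14.1, 18.2 and 21.7 CPM. At day 2 the values were 16.3, 16.2, 15.7 and 22.2 CPM against 20.7, 13.8, 16.9 and 18.9 CPM. At day 3 they were 15.9, 17.7, 16.4 and 20.9 CPM in controls and 14.3, 10.4, 13.6 and 11.6 CPM in DTRADQ. The genotypes overlapped at days 1 and 2 and not at day 3, with DTRADQ means of 107%, 99.7% and 70.2% of the control means. The log2 differences were 0.10 (95% interval −0.30 to 0.50) at day 1, −0.0032 (−0.40 to 0.40) at day 2 and −0.51 (−0.91 to −0.12, adjusted p = 0.0545 by edgeR) at day 3. The day 3 difference passed with the replicate number as a block (−0.52, adjusted p = 0.0489), with only the groups compared in the model (−0.51, adjusted p = 0.0092), and without the shallowest libraries (−0.49, adjusted p = 0.0350), all by edgeR. It was −0.02 with skeletal muscle genes as a covariate (adjusted p = 0.952 by edgeR). Summed muscle genes did not overlap between genotypes at day 3, so this fit cannot tell muscle and genotype apart.

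Set against all genes, 3 of the 4 members passed at day 1, where 3.9% of genes did, and the same 3 members at day 2, where 8.52% did. At day 3 Adipoq and Lepr passed, 2 of 4, with 22.9% of genes past the threshold. The highest treated DTRADQ library reached 10.9% of the control mean for Lepr, and the lowest stood at 46.5% for Lpl.

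**Figure D2:**
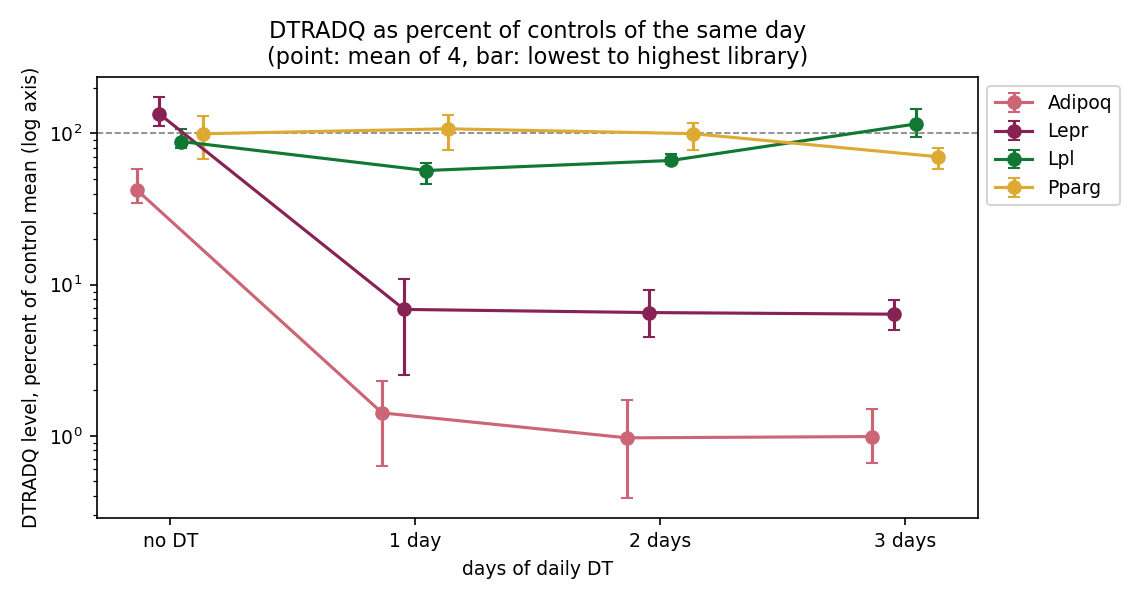
DTRADQ level of each member as a percent of the control mean of the same day (points, mean of 4 mice; bars, lowest to highest library; log axis), with a dashed line at equality. From day 1 Adipoq sits near 1%, between 0.969% and 1.42%, and Lepr between 6.38% and 6.86%, while Lpl runs from 56.9% to 116% and Pparg from 70.2% to 107%.

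Without DT, Adipoq was lower in DTRADQ in the main model, by less than after DT. Controls held 43.2, 68.2, 134 and 82.8 CPM and DTRADQ 28.6, 33.3, 47.6 and 28.8 CPM. The groups overlapped, since the lowest control lay below the highest DTRADQ library, and the log2 change was −1.24 (SE 0.25, adjusted p = 5.5e-04 by edgeR). Adipoq was the 1 member of 4 that passed in this comparison, where 27.1% of all genes passed. The call was lost without control libraries 3 and 4 (−0.68, adjusted p = 0.0586) and with only these groups in the model (−1.23, adjusted p = 0.104), both by edgeR. Over all genes, the calls went from 3944 of 14527 to 1875 of 15044 and 0 of 13308 in these settings. Summed blood cell markers, of which 2 of 10 were higher and 5 lower in DTRADQ, ran from 79316 to 165133 CPM in controls and from 69157 to 82913 CPM in DTRADQ, and their part in this result was not tested. Most of these sums came from S100a8 (means of 90024 CPM in controls and 41363 CPM in DTRADQ) and Ngp (30249 and 27666 CPM). Ptprc ran the other way, at 450 CPM in controls and 724 CPM in DTRADQ. Without control libraries 3 and 4, 1 of the 10 markers was higher and 2 were lower.

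Lepr without DT stood at 29.5, 26.1, 26.3 and 21.5 CPM in controls and at 36.4, 29.0, 45.1 and 28.8 CPM in DTRADQ, a log2 difference of 0.42 (95% interval −0.01 to 0.86, adjusted p = 0.144 by edgeR). Lpl stood at 102, 89.1, 96.3 and 97.4 CPM against 77.5, 82.1, 104 and 77.2 CPM, a difference of −0.18 (−0.52 to 0.16). Pparg stood at 27.6, 20.8, 18.004 and 15.02 CPM against 20.6, 20.0, 26.6 and 13.8 CPM, a difference of −0.02 (−0.42 to 0.38). The groups overlapped for all 3 genes. Without control libraries 3 and 4 the differences were 0.33 for Lepr (adjusted p = 0.419), −0.16 for Lpl (adjusted p = 0.661) and −0.25 for Pparg (adjusted p = 0.504), by edgeR.

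The genotype effect after DT was next set against the one without DT in the same model. Adipoq and Lepr, 2 of the 4 members, passed on each of the 3 days, where 12.3%, 11.1% and 21% of all genes did. For Adipoq the difference was −4.93, −5.49 and −5.37 on the log2 scale at days 1, 2 and 3, and for Lepr −4.26, −4.34 and −4.40, with adjusted p at most 7.0e-09 by edgeR. For Lpl it was −0.64 at day 1 (adjusted p = 0.0728), −0.42 at day 2 (adjusted p = 0.259) and 0.39 at day 3 (adjusted p = 0.256), so this test did not separate the Lpl difference after DT from the one without it. The Lpl value at day 1 passed without control replicate 1 of no DT (−0.67, adjusted p = 0.0398) or control replicate 1 of day 1 (−0.77, adjusted p = 0.0266), by edgeR. For Pparg the values were 0.13, 0.02 and −0.49, with adjusted p of at least 0.219. Without control libraries 3 and 4 of no DT, Adipoq gave −5.49, −6.05 and −5.91 and Lepr −4.17, −4.24 and −4.28, with adjusted p at most 5.0e-09 by edgeR. On the same terms Lpl gave −0.65, −0.42 and 0.39 and Pparg 0.35, 0.26 and −0.24, with adjusted p of at least 0.0954. These 3 comparisons share the libraries without DT, as do the comparisons of days within each genotype.

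Within DTRADQ mice, DT against no DT gave lower Adipoq, Lepr and Lpl at days 1 and 2, 3 of 4 members, where 5.48% and 9.11% of genes passed. At day 3, Adipoq, Lepr and Pparg were lower, again 3 of 4, where 29.4% of genes passed and where lane and day cannot be told apart. Lpl fell by 0.91 on the log2 scale at day 1 (SE 0.17, adjusted p = 5.8e-04) and by 0.64 at day 2 (adjusted p = 0.0147), and at day 3 it differed by 0.08 (95% interval −0.26 to 0.42). The Lpl call of day 2 was lost without replicate 3 of either group (adjusted p = 0.0748 without that of no DT, 0.0560 without that of day 2). Pparg fell by 0.70 at day 3 (SE 0.20, adjusted p = 0.0069), a call that was lost with skeletal muscle genes as a covariate (−0.42, adjusted p = 0.0560), each by edgeR.

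Within controls, DT against no DT moved Adipoq and Lepr far less than within DTRADQ mice. This did not hold for Pparg, at −0.18 and −0.22 in controls and −0.06 and −0.20 in DTRADQ at days 1 and 2. Nor did it hold for Lpl at day 3, at −0.31 in controls and 0.08 in DTRADQ. At day 1 Adipoq was lower (−0.82, adjusted p = 0.0120) and Lepr higher (0.56, adjusted p = 0.0434), 2 of 4 members where 33.4% of genes passed. At day 2 the number of members that passed was 0 of 4, where 28.3% of genes did, although Adipoq (−0.53) and Lepr (0.50) had unadjusted p of 0.0436 and 0.0270 by edgeR and the same number, 0, passed by DESeq2. At day 3 Adipoq was lower (−1.03, adjusted p = 0.0023), 1 of 4 members where 30.2% of genes passed. With only the groups compared in the model, 984 of 13248 genes passed at day 1, 677 of 13337 at day 2 and 920 of 13771 at day 3. Without the shallowest libraries, 3125, 2907 and 3354 of 15044 genes passed on these days. On the latter terms Adipoq gave −0.25 at day 1 and −0.46 at day 3 (adjusted p = 0.510 and 0.182 by edgeR). Lepr gave 0.48 at day 1 (adjusted p = 0.184 by edgeR). Adipoq then gave 0.041 at day 2, and Lepr 0.41 and 0.44 at days 2 and 3. Lpl gave −0.25, −0.20 and −0.28 over the 3 days (−0.28, −0.22 and −0.31 with all libraries), and Pparg −0.40, −0.44 and −0.43 (−0.18, −0.22 and −0.21 with all libraries), with adjusted p of at least 0.156. The Lepr call of day 1 was also lost without any 1 of replicates 2, 3 and 4 of no DT or of day 1 (adjusted p = 0.0513 to 0.145), and the Adipoq call of day 1 without replicate 3 of no DT (−0.42, adjusted p = 0.199 by edgeR). Without replicate 1 of no DT, Adipoq (−0.74, adjusted p = 0.0113) and Lepr (0.57, adjusted p = 0.0468) passed at day 2 and Lepr at day 3 (0.59, adjusted p = 0.0380), and without replicate 3 of day 1 Lpl passed at day 1 (−0.48, adjusted p = 0.0226), each by edgeR.

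Over the days of DT, the genotype effect on Lpl changed and that on Adipoq and Lepr did not pass a test of change. Between days 1 and 3 the Lpl effect moved by 1.02 on the log2 scale (SE 0.24, 95% interval 0.542 to 1.502, adjusted p = 0.0049 by edgeR), the 1 of 4 members that passed where 7.23% of genes did. Between days 2 and 3 it moved by 0.80 (adjusted p = 0.0886), which passed with only the groups compared (adjusted p = 0.0279), with DESeq2 (0.0382) and without the shallowest libraries (0.0426). In the main edgeR model 0 of 4 members passed there, where 1.36% of genes did, and Lpl alone had an unadjusted p under 0.05 (0.0018). Between days 1 and 2 it moved by 0.22 (−0.26 to 0.70). In that comparison 0 of 4 members passed by edgeR or DESeq2, none had an unadjusted p under 0.05, and 0% of all genes passed by edgeR, with 746 at an unadjusted p under 0.05 and 12 past the threshold of DESeq2. From day 1 to day 3 Adipoq moved by −0.45 (−1.68 to 0.78), Lepr by −0.14 (−0.84 to 0.57) and Pparg by −0.61 (−1.18 to −0.05, adjusted p = 0.208 by edgeR). Day and lane cannot be told apart in the comparisons with day 3, although each genotype effect was taken within a day.

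Markers of other cell types also moved at day 3, where 22.9% of all genes passed between genotypes. The summed level of 11 skeletal muscle genes ran from 118 to 713 CPM in DTRADQ and from 29.98 to 60.2 CPM in controls, and 8 of the 10 tested were higher in DTRADQ. The summed level of 10 endothelial genes ran from 160 to 215 CPM against 90.3 to 121 CPM, and 6 of 10 were higher, while at day 2 that sum ran from 137 to 176 CPM against 115 to 133 CPM, with 3 of 10 higher. Resident macrophage genes at day 3 ran from 736 to 794 CPM against 637 to 771 CPM, and 1 of 13 was higher. The DTRADQ library with the highest muscle sum, replicate 2, held the lowest Lpl (73.9 CPM) and the lowest Pparg (10.4 CPM) of its group, and the one with the lowest muscle sum, replicate 1, held the highest of both (112 and 14.3 CPM). With the muscle genes as a covariate the Lpl effect moved by 1.12 between days 1 and 3 (adjusted p = 0.0082 by edgeR). With the same covariate the Pparg difference at day 3 went from −0.51 to −0.02, and its day 3 minus day 1 effect from −0.61 to −0.10 (adjusted p = 0.859 by edgeR). The muscle sums of the genotypes did not overlap at day 3, so these fits cannot tell muscle and genotype apart on that day. The part of endothelium and macrophages in the Lpl and Pparg values was not tested. At day 1, 0 of the muscle, endothelial and macrophage genes passed between genotypes by edgeR (0, 5 and 1 at an unadjusted p under 0.05), and by DESeq2 1 endothelial gene did. Of all genes 8.52% passed at day 2 and only 3.9% at day 1, so a count of 0 in such short lists at day 1 says little. Some monocyte and osteoblast genes moved at day 1. Of 7 monocyte genes, 1 was lower at days 1 and 2 and 2 at day 3: Cx3cr1, a chemokine receptor of monocytes and macrophages (−1.44, −1.16 and −1.17 over the 3 days, adjusted p at most 0.0023), and Ms4a6c at day 3 (−0.61, adjusted p = 0.0105), by edgeR. Their summed level overlapped between genotypes at day 1, at 1631 to 2069 CPM in DTRADQ and 1722 to 2342 CPM in controls. Of 7 osteoblast genes, 1 was lower at day 1, 2 at day 2 and 3 at day 3, and 2 were higher at day 3. Ibsp, which encodes a protein of bone matrix, was lower on each day (−3.01, −2.002 and −1.35, adjusted p at most 6.5e-04 by edgeR). At day 3 Phex (−2.35) and Omd (−1.26) were lower and Alpl (0.62) and Col1a1 (2.43) higher, with adjusted p at most 0.0208 by edgeR. The osteoblast sum ran from 51.5 to 62.2 CPM in DTRADQ and 154 to 263 CPM in controls at day 1, without overlap. At day 3 it ran from 207 to 307 CPM against 175 to 260 CPM. Mean Ibsp was 20.5 CPM in DTRADQ and 165 CPM in controls at day 1, and 61.5 and 156 CPM at day 3. Mean Col1a1 was 28.1 and 32.7 CPM at day 1, and 186 and 34.5 CPM at day 3. The osteoblast sum thus mostly followed Ibsp and Col1a1. The part of monocytes and osteoblasts in the Lpl and Pparg values was not tested, and these genes were named after their values were seen.

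**Figure D3:**
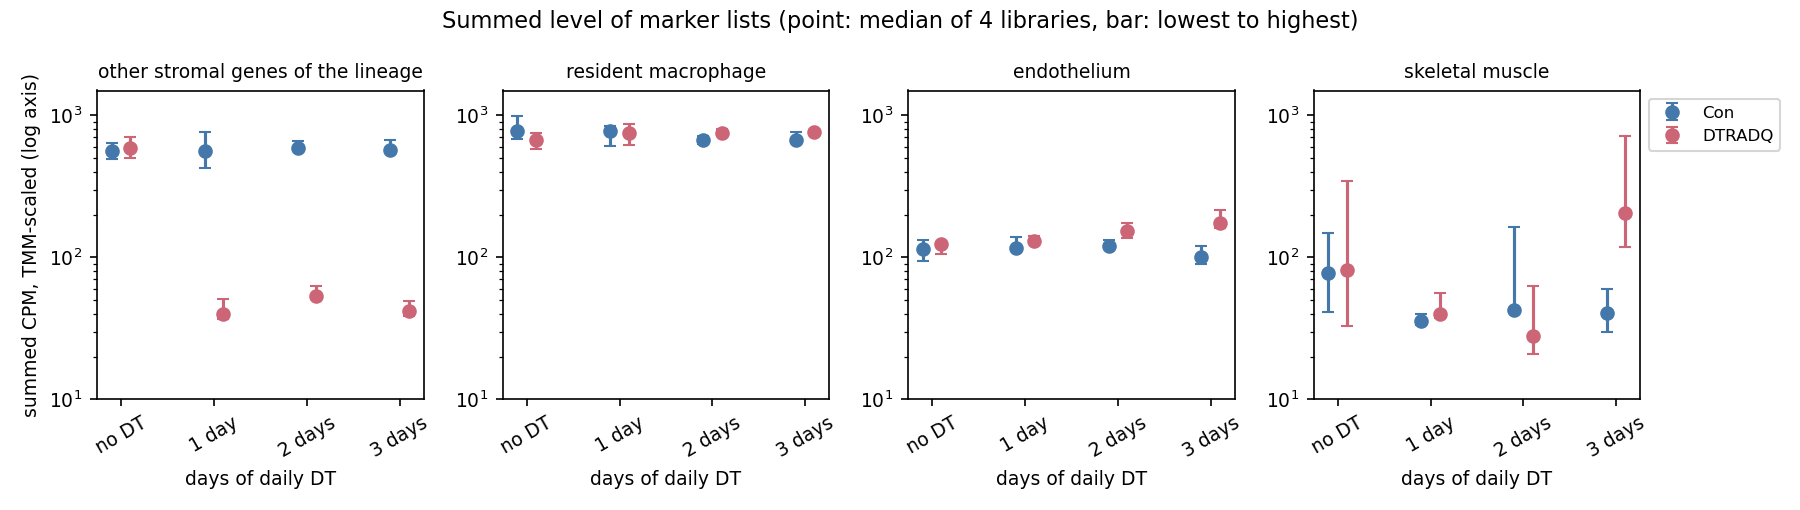
Summed CPM (TMM-scaled, log axis) of other stromal genes of the lineage, resident macrophage, endothelium and skeletal muscle genes by days of DT (points, median of 4 libraries; bars, lowest to highest; Con in blue, DTRADQ in red). The stromal sum separates the genotypes on each day of DT, the endothelial sum at days 2 and 3 and the muscle sum at day 3, where DTRADQ reaches 713 CPM, and macrophage sums lie within 576 and 993 CPM throughout.

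Ratios between members within each library removed the scaling between libraries from the comparison. The log2 ratio of Adipoq to Lpl reads was −0.78 ± 0.12 (SD, n = 4) in controls of day 1 and −6.19 ± 0.95 in DTRADQ, a difference of −5.42 that was −6.19 at day 2 and −6.79 at day 3. The ratio of Lepr to Pparg differed between genotypes by −4.10, −3.94 and −3.46 on these days. Groups did not overlap in any of the 12 ratios of a lineage marker to Lpl or Pparg after DT (exact permutation p = 0.0286, two-sided, the smallest that 4 against 4 allows, adjusted p = 0.0381 over 24 ratios). Adipoq and Lepr therefore took a smaller share of reads relative to both broader genes in each of these DTRADQ libraries.

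The ratio of the lineage markers to each other also differed between genotypes. The log2 ratio of Adipoq to Lepr was lower in DTRADQ at day 2 (difference −2.82) and day 3 (−2.62, exact permutation adjusted p = 0.0381 each). The difference of −2.19 at day 1 did not pass (exact permutation adjusted p = 0.0935), and DTRADQ replicate 4 of that day lay among the controls. Without DT the same ratio differed by −1.58 and that of Lepr to Lpl by 0.60 (exact permutation adjusted p = 0.0381 each), neither with overlap between groups. Without control libraries 3 and 4 these differences were −0.99 and 0.48, again without overlap, as values with no test. Whether the Adipoq to Lepr difference after DT went beyond the one without DT was not tested. Adipoq in treated DTRADQ rested on 3 to 12 reads per library. The ratio of Lpl to Pparg turned direction over the days. It was lower in DTRADQ by 0.88 at day 1 (−0.88, exact permutation adjusted p = 0.0381), gave −0.57 at day 2 (exact permutation adjusted p = 0.0935, overlapping groups), and was higher by 0.71 at day 3 (exact permutation adjusted p = 0.0381).

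**Figure D4:**
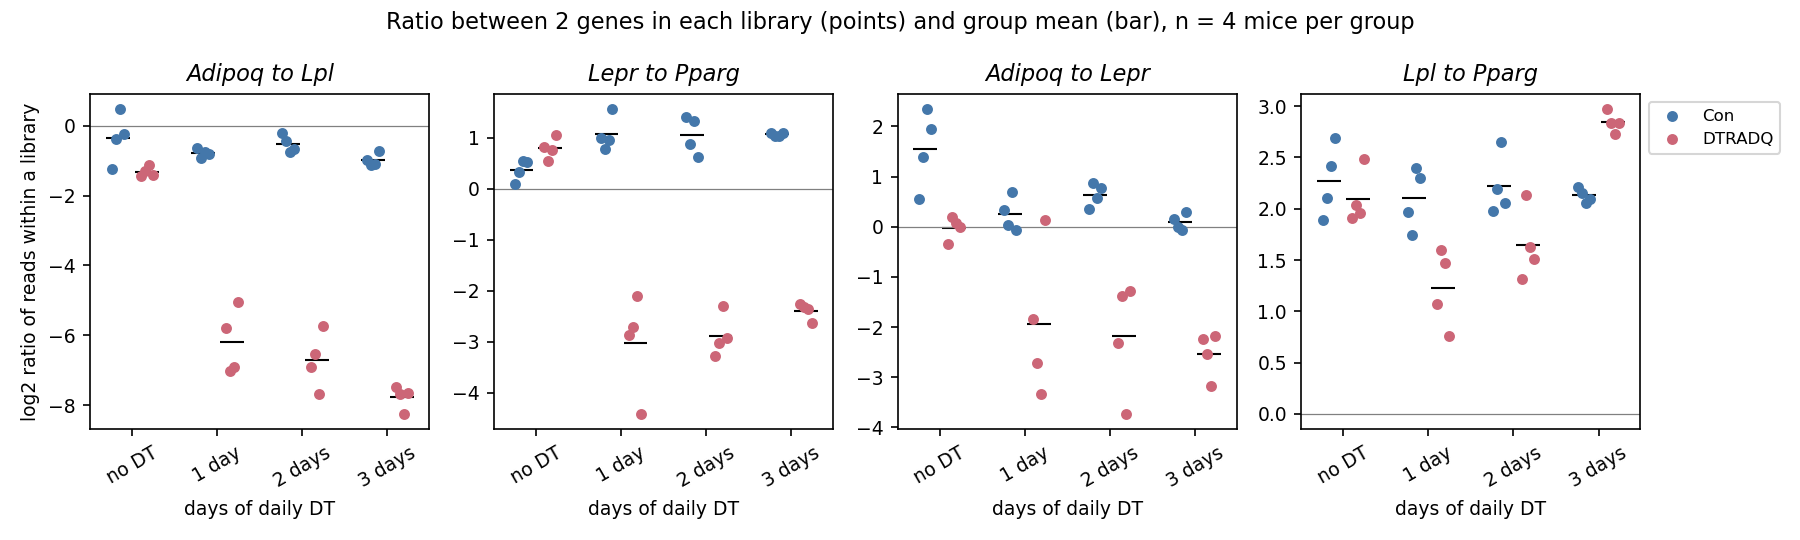
Log2 ratio of reads between 2 members within each library (points) by days of DT, with the mean of 4 mice per group as a bar; Con in blue, DTRADQ in red, 4 panels with their own linear scales. Adipoq to Lpl and Lepr to Pparg are lower in every DTRADQ library with DT, and Lpl to Pparg is lower at day 1 (difference −0.88) and higher at day 3 (difference 0.71).

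Per length of transcript, the order of the members changed with DT. In the deposited RPKM, controls without DT held Adipoq at 44.5 ± 17.9 (SD, n = 4), Lpl at 11.2 ± 2.97, Pparg at 8.46 ± 4.19 and Lepr at 2.95 ± 1.04. DTRADQ without DT had the same order, with Adipoq at 26.7 ± 7.39 and Lpl at 13.3 ± 2.19 RPKM. At day 1 DTRADQ held Pparg at 9.28 ± 2.13 and Lpl at 6.27 ± 0.994 RPKM, while Adipoq, at 0.448 ± 0.257, and Lepr, at 0.353 ± 0.189 RPKM, were within their spread of each other. At day 3 the order was Lpl at 12.8 ± 1.92, Pparg at 6.10 ± 0.720, Lepr at 0.326 ± 0.0566 and Adipoq at 0.279 ± 0.0938 RPKM. The mean order of controls, Adipoq, Lpl, Pparg and Lepr, was the same in all 4 control groups. Without libraries 3 and 4, controls without DT kept that order, at mean RPKM of 36.9, 13.2, 11.5 and 3.69.

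Across the 8 groups, the mean Adipoq level was highest in controls without DT (82.1 ± 38.4 CPM, SD, n = 4), followed by controls of day 2 (56.8 ± 1.83), day 1 (46.3 ± 13.9) and day 3 (40.1 ± 9.75), DTRADQ without DT (34.6 ± 8.96) and the 3 treated DTRADQ groups. Neighbours among the first 5 overlapped by library, and no library of the last 3 exceeded 1.07 CPM. Without libraries 3 and 4, the mean of controls without DT was 55.7 CPM, below that of controls of day 2. Lepr ranged from 25.9 ± 3.28 to 38.3 ± 7.87 CPM in the 5 groups other than treated DTRADQ and from 2.37 ± 0.507 to 2.63 ± 1.39 CPM in treated DTRADQ. Lpl ranged from 45.2 ± 6.61 CPM in DTRADQ at day 1 to 96.2 ± 5.38 CPM in controls without DT, with DTRADQ at day 2 next lowest at 54.7 ± 4.15 CPM and no overlap between these 2 DTRADQ groups. Pparg spanned only 12.5 ± 1.81 CPM in DTRADQ at day 3 to 20.3 ± 5.36 CPM in controls without DT, and the other 7 groups lay between 17.6 and 20.3 CPM, within their spread. Without libraries 3 and 4 the controls without DT averaged 24.2 CPM of Pparg, 27.8 CPM of Lepr and 95.6 CPM of Lpl.

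The genes most like each member were taken as the 5 with the smallest root mean squared difference in log2 CPM, each centred on its own mean, over the 32 libraries. For Adipoq they were Igfbp5 (0.79), Chrdl1 (0.81), Fmo2 (1.01), Grem1 (1.04) and Slc26a7 (1.08), beside a median of 3.12 over all tested genes. For Lepr they were Cxcl12 (0.44), Mme (0.49), Serping1 (0.52), Sfrp4 (0.56) and Serpina3c (0.59), beside a median of 1.90. Several of these encode secreted factors or their antagonists: Cxcl12 a chemokine, Grem1 and Chrdl1 BMP antagonists, Igfbp5 an IGF-binding protein and Sfrp4 a WNT antagonist. For Lpl the nearest were Cmss1 (0.27), Ms4a4b (0.28), Fkbp7 (0.28), Pno1 (0.29) and Mfng (0.29), beside a median of 0.57, and for Pparg Slc29a1 (0.22), Rint1 (0.23), Ankmy2 (0.24), Gin1 (0.25) and Zfp932 (0.25), beside 0.52. Between members, Adipoq and Lepr stood 1.44 apart. There were 14 genes nearer to Adipoq than Lepr was, and 206 nearer to Lepr than Adipoq was. Lpl and Pparg stood 0.50 apart, with 4687 genes nearer to Lpl than Pparg was and 6749 nearer to Pparg than Lpl was. The libraries share depth and composition, and these distances are descriptions without a test.

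Other stromal genes of the lineage fell with Adipoq and Lepr. Of 12 such genes, 11 were lower in DTRADQ on each day of DT, and the median log2 change of the list was −4.28, −3.62 and −3.27, beside −0.01, −0.04 and −0.02 over all tested genes. The exception was Gas1 (−0.73 at day 1, adjusted p = 0.303 by edgeR). Over all genes 3.9%, 8.52% and 22.9% passed at days 1, 2 and 3. The stromal list was chosen with earlier results of these data known, so its fall is a description and no independent support. Pdgfra, a growth factor receptor of stromal cells, was lower by less as days passed (−3.85, −2.34 and −0.76), and its effect moved by 3.10 from day 1 to day 3 (adjusted p = 7.2e-05 by edgeR). Gas1 and Pdgfra were named after their values were seen. Over the same days Adipoq and Lepr did not pass this test of change.

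On the receiving side of adiponectin, among 8 tested genes of its receptors and secretion, 0 passed at days 1 and 3 by edgeR, with 1 on each day at an unadjusted p under 0.05 and with 0 and 1 by DESeq2, and 2 were higher at day 2. These were Adipor1, a receptor of adiponectin (0.71, adjusted p = 0.0077), and Ero1l, an oxidase of the secretory pathway (0.83, adjusted p = 0.0397). The list medians were 0.01, 0.16 and 0.16. Among 12 tested genes of leptin receptor signalling, 0 passed at day 1 by edgeR, with 1 at an unadjusted p under 0.05 and 1 by DESeq2. Of the same list 2 were higher and 1 lower at day 2, and 3 were higher and 1 lower at day 3, with list medians of 0.13, 0.10 and 0.06. Over all genes 3.9%, 8.52% and 22.9% passed at days 1, 2 and 3, so a few calls at day 3 are not particular to a list. Stat3, the main signal carrier of the leptin receptor and of many cytokines, was higher at days 2 (0.47, adjusted p = 0.0237) and 3 (0.39, adjusted p = 0.0293), and Stat5a was lower at day 2 (−0.47, adjusted p = 0.0150). Leprotl1, which resembles the leptin receptor overlapping transcript gene, was higher at days 2 (0.48, adjusted p = 0.0064) and 3 (0.40, adjusted p = 0.0088), each by edgeR.

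Among 18 tested genes of lipoprotein lipase handling and lipid uptake, 1 was higher at day 1, 2 were higher and 1 lower at day 2, and 6 were higher and 2 lower at day 3, with list medians of 0.15, 0.34 and 0.36. The shares of all genes that passed were 3.9%, 8.52% and 22.9% on these days. Lipg, the lipase of endothelium, was higher on each day (1.02, 1.40 and 1.18, adjusted p = 0.0453, 0.0041 and 0.0039 by edgeR), unlike Lpl. At day 3 Mgll, which cleaves monoglycerides, was lower (−0.85, adjusted p = 4.1e-04), as was Cd36, a fatty acid carrier (−1.10, adjusted p = 0.0031), both by edgeR. Gpihbp1, which holds lipoprotein lipase on capillary walls, was higher at day 3 (1.17, adjusted p = 0.0056 by edgeR), and it was named outside the rule after its values were seen. Of the endothelial markers, 6 of 10 were higher on that day, as given above, and their part was not tested.

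Among 19 tested partners of PPARG and adipogenic factors, 0 passed at days 1 and 2 by edgeR, with 4 and 2 at an unadjusted p under 0.05 and 1 lower on each day by DESeq2. The list medians were −0.08, −0.14 and −0.07 over the 3 days. Of all genes 3.9%, 8.52% and 22.9% passed on these days, so a few calls among the partners at day 3 are not particular to that list. At day 3 Ncoa1, a coactivator, was higher (0.47, adjusted p = 0.0152) while Cebpa (−0.77, adjusted p = 0.0130), Ppargc1b (−0.74, adjusted p = 0.0327) and Cebpd (−0.63, adjusted p = 0.0374) were lower. Cebpa and Cebpd encode factors of fat cell and myeloid cell formation. Cebpd was named outside the rule after its values were seen. Among 11 tested target genes of PPARG in fat cells, 0 were higher and 3 lower at day 1, 3 higher and 3 lower at day 2, and 1 higher and 3 lower at day 3, with list medians of 0.20, 0.49 and 0.15. The summed level of the list was higher in DTRADQ on each day, without overlap, at 747 to 887 CPM against 619 to 696 CPM in controls at day 1, 861 to 1113 against 613 to 684 CPM at day 2 and 822 to 869 against 593 to 664 CPM at day 3. That sum weights genes by their abundance and took in 16 genes, of which 11 were tested. It does not show a rise shared by the list, since 0 of the tested genes were higher at day 1. Cidec and Cfd, both at low levels, were lower on each day. Cidec, of lipid droplets, lay between 0 and 0.0970 CPM at day 1 against 0.532 to 1.88 CPM in controls, and Cfd, the adipokine adipsin, between 0.146 and 3.20 CPM against 3.39 to 24.4 CPM at day 1. Scd1, a fatty acid desaturase, was lower at days 1 (−1.14, adjusted p = 0.0058) and 2 (−1.22, adjusted p = 0.0027), while Plin2, a lipid droplet coat protein of many cell types, was higher at days 2 (0.92, adjusted p = 0.0177) and 3 (1.15, adjusted p = 8.5e-04), by edgeR. Targets of the list thus moved in both directions at days 2 and 3.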

How the data were processed

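Tools named in the submitters' processing notes are bcl2fastq, STAR 2.0.4b, featureCounts 1.45 and Subread, with GRCm38 as the build. For the annotation release, the use of strand and multiply mapped reads, the setting is not given in the sources used here. Total RNA of femur marrow went into SMARTer libraries, per the labels' protocols. Per the file headers, the authors deposited a raw count, a CPM and an RPKM value for each gene and library. Counts were tested. The deposited RPKM served levels per length, and the deposited CPM equalled counts over the library total.

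In R 4.3.3, edgeR 4.0.16 kept 14527 genes (filterByExpr, minimum count 10), scaled libraries by TMM and fitted 1 quasi-likelihood model to the 8 groups, with 16 contrasts and a Benjamini-Hochberg threshold of 0.05 within each. It was tested on simulated data. SE is the absolute log2 change over the square root of F, and intervals are 95% from the same model. Log2 ratios between members used a pseudocount of 0.5. Alternatives were DESeq2 1.42.0, its size factors, no filter, only the groups compared, a muscle covariate, a replicate block, each library left out in turn and, added after seeing the data, both shallowest libraries left out. Libraries are 1 per mouse by the series' design. From each role list the 3 called genes with the smallest p-values in a contrast could be named, not all of which are printed, and for each member the 5 most similar genes. The members and lists were chosen with earlier results of these data known. Sequences are RefSeq's in GRCm38.p6.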

Additional observations from a re-analysis of the deposited data

Results flagged for a closer look

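Pparg in controls of day 2 had 1 library far from the others: replicate 4 stood at 22.2 CPM, beside 15.7 to 16.3 CPM in the other 3. There were 32 member and group combinations of 4 libraries, and chance sets about 1 in 20 apart in this way. The effect of genotype differed between mice with and without DT for Adipoq (−4.93, −5.49 and −5.37 on the log2 scale at days 1, 2 and 3) and for Lepr (−4.26, −4.34 and −4.40), by edgeR's test of the difference itself. For Lpl the effect of genotype differed between days 1 and 3 by 1.02.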

How the results depend on the processing

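Leaving out no library or both shallowest ones, 416 log2 changes of members kept their direction and side of the threshold, 10 lost and 8 gained a call and 14 reversed, and with a pseudocount of 1 all 24 log2 ratios between members kept theirs. With 1 library left out no called ratio turned direction, but 4 against 3 allows no exact permutation p below 0.0571, so whether a call holds could not be shown. The same goes for the ratios with a replicate block, where 4 pairs allow no p below 0.125. Without the shallowest libraries the ratios without DT were values only, and Lpl to Pparg, not called, went from −0.18 to 0.10. None of the reversed changes was called under either setting. They were Pparg without DT (0.028 with no filter, 0.17 with the muscle covariate), Pparg at day 2 (0.019 with DESeq2 size factors and with DESeq2, 0.0058 with no filter, 0.0076 without the shallowest libraries), genotype by DT for Pparg (−0.084 at day 1 and −0.39 at day 2 with the muscle covariate, −0.023 at day 2 with no filter), the day 3 minus day 2 effect with the muscle covariate (Adipoq −0.020, Lepr 0.33, Pparg 0.20), the day 3 minus day 1 effect of Lepr (0.14, muscle covariate) and Adipoq in controls at day 2 (0.041, without the shallowest libraries). The cause was not tested. Members called went from 1 to 0 without DT, and from 2 to 0 at day 1 and 1 to 0 at day 3 for DT in controls, both with only the groups compared and without the shallowest libraries. For controls they were 1 at day 1 with the muscle covariate and 2 at day 3 with no filter. For day 3 minus day 2 they were 1 rather than 0 with only the groups compared, with DESeq2 and without the shallowest libraries. With 1 library left out, members called for DT in controls ran from 0 to 2 at day 1, 0 to 2 at day 2 and 1 to 2 at day 3. Changes that crossed 0 in such fits ran, for Pparg, from −0.18 to 0.17 without DT, −0.015 to 0.23 at day 1 and −0.069 to 0.13 at day 2. Its genotype by DT ran from −0.064 to 0.28 at day 1 and −0.17 to 0.17 at day 2, its day 2 minus day 1 effect from −0.22 to 0.029, and DT at day 1 from −0.28 to 0.0075 in controls and −0.20 to 0.0996 in DTRADQ. For Lepr the effect ran from −0.31 to 0.24 for day 2 minus day 1, −0.17 to 0.21 for day 3 minus day 2 and −0.34 to 0.21 for day 3 minus day 1. For Adipoq it ran from −0.13 to 0.54 for day 3 minus day 2, and Lpl for DT at day 3 in DTRADQ from −0.0067 to 0.20.

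No label says what a replicate number stands for. Deviations of same-numbered libraries correlated between −0.157 and 0.356, 37 of 112 such pairs were over 0.1, and 21 of 32 libraries correlated best with their own number, a hint from the data and not the design. With the replicate number as a block, the members called for DT day 3 in controls were 2, with Lepr added (0.53, adjusted p = 0.0401 by edgeR), and Pparg passed between genotypes at day 3 (−0.52, adjusted p = 0.0489). The block changed no other call of a member. Calls over all genes moved from 567 to 667 at day 1, 1238 to 1579 at day 2 and 3330 to 3621 at day 3.

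Of the list counts, lipoprotein lipase genes called went from 1 to 3 at day 1 and from 3 to 6 at day 2 without the shallowest libraries (2 and 5 with DESeq2), and resident macrophage genes from 1 to 3 at day 3. Over all genes, calls without those libraries were 1337, 2896 and 5023 of 15044 at days 1, 2 and 3. With DESeq2 they were 757 and 1700 of 14527 at days 1 and 2. Without those libraries, counts of 0 became 1 for adiponectin receptors (days 1 and 3), leptin signalling and endothelium (day 1) and PPARG partners and macrophage genes (day 2), and 2 for PPARG partners (day 1). The stromal count stayed 11 on each day in both. Depth limits Adipoq in treated DTRADQ mice, where 3 to 12 reads per library set its level.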
